A study of Mus musculus with 20 samples.

Results

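The 300 highest-scoring clusters of distal H3K27ac peaks in RANKL-treated RAW264.7 cells are described here, out of 4845 such clusters. H3K27ac, acetylation of lysine 27 of histone H3, had been mapped by chromatin immunoprecipitation and sequencing. The clusters were built from the peak lists of RANKL replicates 1 and 3. The 2 lists shared 15153 stretches, of which 8327 lay within 2.5 kb of an end of a protein-coding gene on the GRCm38 mouse build and were dropped. The remaining 6826 stretches were stitched across short gaps, with a median bridged gap of 3.89 kb, and the narrowest gap left unbridged was 12.51 kb. Each cluster was scored by the summed width times fold enrichment of its peaks in both lists, given below in kb times fold. A peak that touched a stretch counted with its whole width, also where it reached beyond the cluster. The score is a readout of the RANKL libraries, so high RANKL coverage of the 300 clusters follows from how they were chosen and is given without a test.

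RAW264.7 is a mouse macrophage line of monocytic origin, and all groups were the same line without an engineered allele stated in the labels. The first group was left untreated, another received RANKL at 50 ng/ml, a further one RANKL at the same dose with the BET inhibitor I-BET at 500 nM, and the last I-BET at 500 nM alone. Treated cells were cross-linked after 4 h. There were 3 libraries of every group except I-BET alone, which had 1, numbered 3, and 1 peak list per library (10 in all). The other 10 samples were input DNA and were not analysed here. No separate cultures are named in the labels, so the spread that the p-values measure is that between these samples and may be technical. The measurement is of bulk cells, in which a change in the share of cells that carry the mark and a change in the mark per cell cannot be told apart.

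RANKL, the ligand of the receptor RANK, drives macrophage precursors to become osteoclasts, the cells that resorb bone, through NF-kB, AP-1 and NFATc1. H3K27ac marks active enhancers and promoters. Long groups of closely spaced, heavily acetylated enhancers, often called super-enhancers, lie near genes that define a cell type, and BET proteins, which bind acetylated histones, accumulate on them. The name super-enhancer rests on a ranking of signal, which the files do not hold, so the regions are called distal clusters below.

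Of the 9 macrophage markers examined (among them Spi1, Csf1r, Adgre1 and Cd68), 8 or 9 had a peak at most 1 kb from an end of the gene in 9 of the 10 libraries, and 6 did in RANKL+I-BET replicate 2. Of 8 lymphocyte markers, 1 or 2 had such a peak in 8 libraries and 0 in RANKL+I-BET replicate 2. Markers of fibroblasts and osteoblasts and of unrelated tissues had 0 such peaks in 9 libraries. RANKL replicate 2 had them at 8 of 8 lymphocyte markers, 4 of 7 fibroblast and osteoblast markers and 6 of 8 markers of unrelated tissues. The lists covered 16.1 to 25.9 Mb in the 7 libraries numbered 1 or 3. They covered 7.79 Mb in untreated replicate 2, 184.6 Mb in RANKL replicate 2 and 3.44 Mb in RANKL+I-BET replicate 2. Because the libraries numbered 2 stand apart, group values below use replicates 1 and 3. The values of replicate 2 are given for the medians over the clusters and for some of the clusters named. The lists hold no read counts, so the depth of every library is unknown.

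The clusters are distal to coding genes, but 59 of the 300 (19.7%) held, wholly inside a stretch, the window from 250 bases before to 50 after an annotated transcription start. Among the other 4545 clusters 8.43% did. The 300 hold more stretch each, a median of 7.06 kb against 0.959 kb in the others. Per Mb of stretch the windows were fewer in the 300 (79 in 2.39 Mb) than in the others (501 in 5.85 Mb). Of the 79 windows in the 300, 44 were of long non-coding RNAs, in 34 clusters. The other 35 were of coding genes, in 29 clusters, with starts away from either gene end. These windows are the part of the clusters for which sequence could be read, from RefSeq on GRCm38.p6, and 4 are shown as examples, chosen after their values and matches were seen. Capitals mark matches on either strand to AP-1 (TGANTCA), PU.1 (GAGGAAGT), the NF-kB site or C/EBP (TTGCNNAA). The first lies in the third-ranked cluster, at chr10:120636058-120636357 on the minus strand. The second, chr2:167777365-167777664 on the minus strand, starts a long non-coding RNA in the Cebpb cluster. All 4 hold an AP-1 match. The third is an internal start of Mef2c at chr13:83573357-83573656 on the plus strand, in the Mef2c cluster ranked 251 and not in the one ranked 155, and the fourth is a start of Cybb, the catalytic subunit of the phagocyte NADPH oxidase, at chrX:9469275-9469574 on the minus strand.
4930471E19Rik: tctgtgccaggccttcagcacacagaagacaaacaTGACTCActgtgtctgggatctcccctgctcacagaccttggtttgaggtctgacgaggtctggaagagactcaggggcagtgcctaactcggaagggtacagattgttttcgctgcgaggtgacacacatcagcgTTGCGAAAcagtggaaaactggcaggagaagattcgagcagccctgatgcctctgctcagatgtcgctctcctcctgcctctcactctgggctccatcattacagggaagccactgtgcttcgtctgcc
Gm32287: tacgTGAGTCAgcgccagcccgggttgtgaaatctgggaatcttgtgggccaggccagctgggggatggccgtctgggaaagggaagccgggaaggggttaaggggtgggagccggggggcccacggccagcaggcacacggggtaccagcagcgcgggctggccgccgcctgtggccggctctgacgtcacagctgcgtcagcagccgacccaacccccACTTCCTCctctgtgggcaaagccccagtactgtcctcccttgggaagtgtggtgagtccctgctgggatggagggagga
Mef2c: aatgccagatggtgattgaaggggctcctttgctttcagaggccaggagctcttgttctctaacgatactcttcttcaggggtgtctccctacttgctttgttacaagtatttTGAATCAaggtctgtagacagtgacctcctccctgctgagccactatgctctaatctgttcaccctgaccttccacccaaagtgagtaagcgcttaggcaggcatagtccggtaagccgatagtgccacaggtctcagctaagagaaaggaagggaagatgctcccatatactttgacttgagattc
Cybb: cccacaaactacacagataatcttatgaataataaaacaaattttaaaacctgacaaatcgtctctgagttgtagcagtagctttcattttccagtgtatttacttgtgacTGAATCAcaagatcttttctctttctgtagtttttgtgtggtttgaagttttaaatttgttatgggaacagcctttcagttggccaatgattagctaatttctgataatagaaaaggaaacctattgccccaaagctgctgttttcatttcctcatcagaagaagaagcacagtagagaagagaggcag

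An AP-1 match was present in 16 of the 79 windows (20.3%), beside 7.81% of 32851 RefSeq promoter windows of the same length. A PU.1 match was in 6.33% of the windows and 3.20% of all promoters, and a C/EBP match in 16.5% and 10.8%. A match to the tandem IRF site was in 7.59% and 3.44%, a RUNX match (TGTGGT) in 21.5% and 16.8%, and an E-box (CACGTG) in 8.86% and 7.15%. The NF-kB site was matched in 0 of the 79 windows and 0.411% of all promoters, and the CTCF site in 1.27% and 3.43%. Both strands were searched, and windows of alternative starts of a gene can overlap. The median GC content was 56.3% in the windows and 52.7% in all promoters. These counts describe letters in windows, not bound sites.

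The printed windows were not covered alike. All 300 bases of the Cybb window lay under a peak in RANKL replicates 1 and 3, RANKL+I-BET replicates 1 and 3, I-BET alone and untreated replicate 3. In untreated replicate 1 and in every library numbered 2 the window was covered at 0 bases. The Mef2c window was covered whole in all 7 libraries numbered 1 or 3 and at 0 bases in the 3 libraries numbered 2. The 4930471E19Rik window was covered whole in 9 libraries and at 0 bases in RANKL+I-BET replicate 2, and the Gm32287 window was covered whole in 9 and at 36 bases in untreated replicate 2.

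The spans of the clusters held 7 microRNA genes. Of these, Mir6367 lay inside a stretch, in the cluster of Ifnar1 ranked 131, at chr16:91527443-91527544 on the minus strand. Mir99a and the let-7c gene Mirlet7c-1 lay in a gap of the intergenic cluster at chr16:77592668-77603784, ranked 141. Their mature sequences are shown with the seed, bases 2 to 8, in capitals, and their 3 seeds differ.
miR-6367: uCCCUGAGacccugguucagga
miR-99a-5p: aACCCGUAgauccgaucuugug
let-7c-5p: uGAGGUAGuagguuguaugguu
The 102 bases of the Mir6367 hairpin were covered whole in RANKL replicates 1, 2 and 3, in RANKL+I-BET replicate 3 and in I-BET alone. They were covered at 90 bases in RANKL+I-BET replicate 1, at 95 in untreated replicate 3 and at 0 in untreated replicates 1 and 2 and RANKL+I-BET replicate 2. Among libraries numbered 1 or 3, the untreated libraries had 0 and 95 bases, and the RANKL+I-BET range of 90 to 102 overlapped theirs.

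The 300 clusters held 1017 of the 6826 stretches, with a median of 3 and at most 9 each. Their median span was 16.0 kb, from 1.27 to 65.5 kb, against 1.03 kb in the other clusters. In all they spanned 5.59 Mb and held 28.5% of the summed score. Single stretches made up 26 of the 300 and 3554 of the other 4545. Scores fell from 258.5 kb times fold at rank 1 through a median of 54.5 to 38.1 at rank 300. The clusters just inside the threshold, Cd27 (38.13), Ubac2 (38.13) and Myo9b (38.11), scored close to Mdm2 (38.05), Cyfip1 (37.89) and Tbc1d1 (37.70) just outside it. The rank of 300 is therefore a limit on a continuous range, as the plot of score by rank shows.

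**Figure D1:**
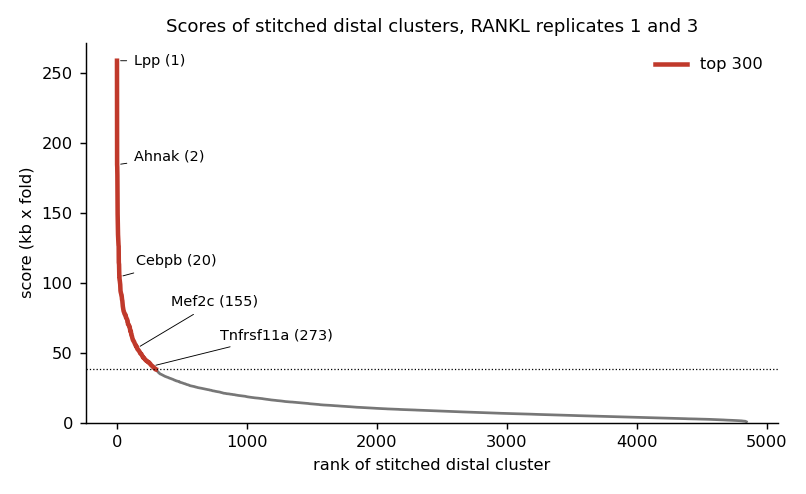
Score of each of the 4845 distal clusters (y axis, kb times fold) against its rank (x axis), built from RANKL replicates 1 and 3. The red line marks the top 300, the dotted line the score at rank 300 (38.1), and 5 clusters are labelled with their gene and rank. The curve is steep among the first ranks and has no gap at rank 300.

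The cluster with the highest score lay intergenic beside Lpp, which encodes a LIM-domain protein of focal adhesions, at chr16:25007388-25063072 with a span of 55.7 kb. It was followed by a cluster inside Ahnak, a very large scaffold protein (chr19:9022216-9067371), and by one with no protein-coding gene within 100 kb (chr10:120614575-120667065). Next came, among others, those of Incenp, a chromosomal passenger protein, Tomm20, an import receptor of the outer mitochondrial membrane, Tns3, a tensin of focal adhesions, Tmco5, Zfp710 and Pla2g4a. Pla2g4a encodes the cytosolic phospholipase A2 that releases arachidonic acid. A cluster was given the coding gene with the longest overlap, or otherwise the nearest gene end within 100 kb, which does not show that it regulates that gene.

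The share of the span under peaks in the Lpp cluster ranked 1 was 44.0% and 67.0% in untreated replicates 1 and 3, 64.1% and 72.2% in RANKL, 40.9% and 51.6% in RANKL+I-BET, and 51.0% in I-BET alone. Both RANKL+I-BET libraries were below both RANKL libraries, and the untreated range overlapped each of them. Replicates 2 had 23.3% untreated, 43.5% with RANKL and 10.6% with RANKL+I-BET. In the Pla2g4a cluster the shares were 28.0% and 59.5% untreated, 73.7% and 100% with RANKL, 64.7% and 75.9% with RANKL+I-BET and 77.6% with I-BET alone. Here RANKL and RANKL+I-BET overlapped, and both lay above untreated as deposited. At the common covered length RANKL+I-BET had 45.9% and 75.9% and overlapped untreated.

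Of the 300 clusters, 176 lay inside a coding gene, 15 partly and 109 between genes, and 58.7% inside compares with 59.98% of the other clusters. No coding gene lay within 100 kb of 15. A stretch within 2.5 kb of an end of a non-coding gene was present in 33.7% of the 300 and 19.7% of the others. The 300 hold more and longer stretches each, and the part of length in this was not tested. The clusters were assigned to 262 genes, 22 of them with more than 1 cluster. Rbpj, the DNA-binding mediator of Notch signalling, had the most, with 3 clusters, ranked 88, 101 and 114. The one ranked 88, at chr5:53537402-53548129, was wholly covered in RANKL replicates 1 and 3, at 69.7% and 89.0% in untreated replicates 1 and 3, at 100% and 96.2% in RANKL+I-BET and at 99.2% in I-BET alone, so RANKL+I-BET and RANKL overlapped above untreated. Chromosome 2 held 35 clusters and the X chromosome 2. In RANKL replicates 1 and 3, 72.1% and 72.5% of the 262 genes had a peak at most 1 kb from an end of the gene, beside 41.5% and 41.8% of all 21887 coding genes. In untreated replicates 1 and 3 it was 63.4% and 69.1% of the 262 genes, beside 32.4% and 37.7% of all.

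Every one of the 300 clusters held a peak in all 7 libraries numbered 1 or 3, untreated cells included, and 238 held one in all 10. Of the other distal clusters, 75.2% and 78.8% held a peak in untreated replicates 1 and 3, 91.3% and 80.9% in RANKL+I-BET and 78.6% in I-BET alone. The 300 clusters are also much longer than the others, and the part of length in this was not tested. Clusters without a peak numbered 20 in untreated replicate 2, 9 in RANKL replicate 2 and 56 in RANKL+I-BET replicate 2. The 9 without one in RANKL replicate 2 included clusters of Nf1, Cntn4, Cybb and Alcam, although that list was the longest.

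The median share of a cluster's span under peaks was 37.1% and 45.1% in untreated replicates 1 and 3, 51.9% and 55.5% in RANKL, 46.3% and 47.4% in RANKL+I-BET, and 46.8% in I-BET alone. The 2 RANKL values, which the choice of clusters uses, were the highest of these 7. In replicates 2 the median was 17.2% untreated, 61.4% with RANKL and 5.25% with RANKL+I-BET, in the order of the lengths of their lists. The group means were 41.1% ± 5.64 untreated, 53.7% ± 2.56 with RANKL and 46.8% ± 0.727 with RANKL+I-BET (SD, n = 2 each). RANKL+I-BET therefore lay 5.71 percentage points above untreated, a comparison that uses neither RANKL library but is made in clusters chosen for high RANKL coverage. An exact two-sided permutation test of this difference gave p = 0.333, the smallest that 2 libraries a group allow, and with all 3 replicates the difference was -0.18 points (p = 1, smallest possible 0.1).

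**Figure D2:**
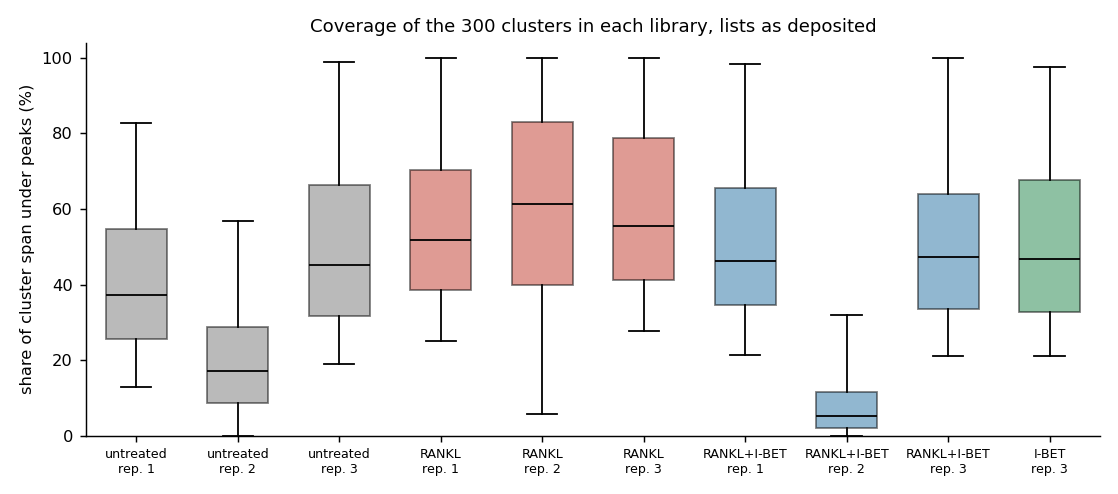
Share of each cluster's span under peaks (y axis, %) in the 10 libraries (x axis) over the 300 clusters, lists as deposited. Lines are medians, boxes quartiles and whiskers the 5th and 95th percentiles over clusters, which are not replicates. RANKL+I-BET replicate 2 has the lowest median (5.25%) and RANKL replicate 2 the highest (61.4%).

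The lists differ in length, and their medians were compared again at equal length. When only the peaks of highest -log10 p were kept in each of the 7 lists numbered 1 or 3, down to the 16.1 Mb of the shortest, the medians were 37.1% and 43.0% untreated, 40.4% and 40.7% with RANKL, 37.4% and 38.6% with RANKL+I-BET, and 41.9% with I-BET alone. The RANKL libraries then lay between the 2 untreated ones, and the median of I-BET alone exceeded both RANKL medians. The difference between RANKL and untreated was 12.6 percentage points as deposited and 0.50 points at the common length. That between RANKL+I-BET and untreated turned from 5.71 to -2.09 points, and that between RANKL+I-BET and RANKL went from -6.84 to -2.59. The number of reads behind each list was not available to tell a longer list from more acetylation.

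The deposited lists put similar parts of their length into the clusters. The 300 clusters took up 12.52% and 12.33% of the untreated lists 1 and 3, 11.3% and 11.2% of the RANKL lists, 10.65% and 12.03% of the RANKL+I-BET lists and 12.51% of the I-BET list. In RANKL replicate 2 they took 1.73%. Within the stretches themselves, peaks covered 71.3% and 85.4% of the bases in untreated replicates 1 and 3, 86.8% and 87.1% in RANKL+I-BET and 85.3% in I-BET alone. For the stretches of the other clusters these values were 58.4% and 74.2%, 82.7% and 77.2%, and 72.7%. RANKL replicate 2, which the rule did not use, covered 73.4% of member stretches and 72.3% of the others. It also covered 45.0% of the gaps between member stretches, where the 7 libraries numbered 1 or 3 covered 8.80% to 16.0%.

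Cluster by cluster, both RANKL libraries covered more than both untreated libraries in 163 of the 300 clusters (54.3%), beside 62.3% of all 4845. The reverse held for 2 clusters, Cd300a, which encodes an inhibitory receptor of myeloid cells, and Gnl1 (0.667%, beside 0.227%). Both RANKL libraries covered more than both RANKL+I-BET libraries in 123 clusters (41.0%, beside 45.2%), and less in 11 (3.67%, beside 1.01%). The rule used RANKL coverage, so nothing is read from these 4 counts. Between the groups whose libraries the rule did not use, RANKL+I-BET covered more than untreated in 96 clusters (32.0%, beside 24.4%) and less in 15 (5%, beside 4.02%). At the common covered length the counts were 73 and 28 for RANKL above and below untreated (22.5% and 9.06% of all clusters), and 66 and 38 for RANKL above and below RANKL+I-BET (19.9% and 7.18%). For RANKL+I-BET above and below untreated they were 61 and 42, which are 20.3% and 14.0% of the 300 beside 13.9% and 9.66% of all clusters. In both directions of that comparison the share of the 300 exceeded that of all clusters. A cluster in which the groups tie, as at 0% or 100%, cannot count in either direction. As deposited, 1126 and 962 of the other, shorter clusters had no peak in untreated replicates 1 and 3, and 395 and 867 had none in RANKL+I-BET. Of the 300, 0 lacked a peak in these libraries. The part of length and ties in the excess was not tested.

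**Figure D3:**
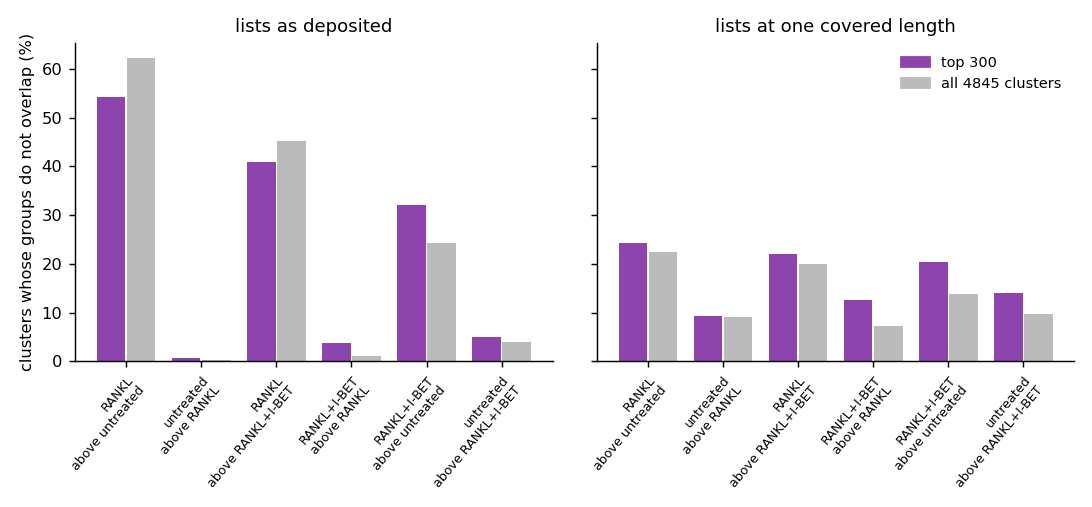
Share of clusters (y axis, %) in which both libraries of the first group covered more bases than both of the second (x axis, replicates 1 and 3), with lists as deposited (left) and at a common covered length (right). Purple bars are the top 300 and grey bars all 4845 clusters. RANKL above untreated goes from 54.3% of the 300 as deposited to 24.3% at the common length.

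A linear model over all clusters (limma, moderated, on log2 of covered bases plus 500, at the common covered length) tested 2609 clusters, including all 300. For RANKL+I-BET against untreated it called 0 of 2609 at a Benjamini-Hochberg adjusted p under 0.05 (0%), with 129 at an unadjusted p under 0.05 (4.94%). Among the 300, 14 had an unadjusted p under 0.05 (4.67%), and the median log2 difference was 0.06, against 0.01 over all tested clusters. The smallest adjusted p over all clusters was 0.163. With 200 changes of a given size simulated for this comparison, the test recovered 0% of changes of 1 log2 unit, 20.5% of 2 units and 56.5% of 4 units, so smaller changes were not detectable. RANKL against untreated gave 0 calls (0%, with 189 at an unadjusted p under 0.05, 7.24%) and RANKL+I-BET against RANKL 15 (0.575%, with 215 at an unadjusted p under 0.05, 8.24%). None of those 15 was among the 300, and both contrasts involve the libraries that chose the clusters.

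The 10 clusters with the widest gap between RANKL and untreated are given as a description of the libraries that chose them. In the Zdhhc14 cluster, inside a palmitoyltransferase gene at chr17:5568965-5576827, untreated replicates 1 and 3 had 64.4% and 56.3% of the span under peaks, and both RANKL libraries 100%. RANKL+I-BET had 100% and 71.0%, I-BET alone 100%, and the replicates 2 had 33.6% untreated, 72.6% with RANKL and 36.2% with RANKL+I-BET. In each replicate number RANKL was above untreated, and I-BET alone was as high as RANKL. At the common covered length, I-BET alone fell to 0% there, while the values of the untreated and RANKL libraries stayed where they were.

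Cass4, a Cas-family scaffold protein, had a cluster at chr2:172398318-172406608. Its shares were 40.4% and 55.2% untreated, 86.6% and 100% with RANKL, 69.8% and 57.8% with RANKL+I-BET and 63.2% with I-BET alone. Replicates 2 had 30.7%, 100% and 11.2%. As deposited, the RANKL libraries lay above all others, and RANKL+I-BET lay between RANKL and untreated. At the common covered length RANKL stayed above both other groups. RANKL+I-BET then had 69.8% and 35.6% and overlapped untreated, at 40.4% and 55.2%.

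Adam9, a membrane metalloprotease, had 47.2% and 27.6% of its cluster covered untreated, 75.05% and 100% with RANKL, 48.6% and 63.2% with RANKL+I-BET and 61.9% with I-BET alone. The Cdc42 cluster had 47.8% and 37.7% untreated, 67.2% and 74.5% with RANKL, 53.4% and 58.3% with RANKL+I-BET and 75.6% with I-BET alone. Gnptab, which builds the tag that sends enzymes to lysosomes, had 11.3% and 19.5% untreated, 39.2% and 44.1% with RANKL, 37.1% and 26.98% with RANKL+I-BET and 21.9% with I-BET alone. As deposited, in all 3 clusters the RANKL libraries lay above both other groups, and I-BET alone lay above both untreated libraries. At the common length this held for Adam9 and Cdc42. In Gnptab, RANKL then had 33.5% and 32.8%, between the RANKL+I-BET values of 37.1% and 0%, and I-BET alone had 16.5%, below untreated replicate 3. The others of the 10 were those of Abl2, a tyrosine kinase, Itgb2, the beta subunit of leukocyte integrins, Dusp1, a phosphatase of MAP kinases, an X-linked one with no gene near it, and a 1.27 kb cluster nearest Frmd8. At the common covered length 8 of the 10 still had RANKL above untreated, the exceptions being the X-linked cluster and the Frmd8 one.

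The Frmd8 cluster, at chr19:5837397-5838663, lies inside Neat1, the long non-coding RNA that scaffolds paraspeckles. It was wholly covered in RANKL replicates 1 and 3, in RANKL+I-BET replicates 1 and 3 and in I-BET alone, at 16.7% and 81.2% in untreated replicates 1 and 3, and at 0% in every library numbered 2. The 2 untreated libraries thus differed from each other by more than untreated replicate 3 differed from RANKL. At the common covered length RANKL replicate 3 had 0%. The strongest peaks of this cluster had folds of 3.30 and 2.25 in RANKL replicates 1 and 3. The span is 1.27 kb, so most of the score behind its rank of 191 came from peak width outside the span.

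The widest gaps between RANKL and RANKL+I-BET were in clusters of Npc2, a lysosomal carrier of cholesterol, Vps8, a subunit of an endosomal tethering complex, Cntn4, Nav2, Actb, Lpp, 1700016C15Rik and Acot7, in Cass4, and in the intergenic cluster at chr2:46359584-46373237. In the Npc2 cluster RANKL replicates 1 and 3 had 82.7% and 100% of the span covered, RANKL+I-BET 54.5% and 18.6%, I-BET alone 22.5% and untreated 30.3% and 73.8%. RANKL+I-BET lay below RANKL and overlapped untreated. At the common length RANKL replicate 3 had 0% there, so the gap was not kept.

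Nav2, which encodes a neuron navigator protein, had 70.7% and 84.7% of its cluster covered untreated, 89.4% and 74.1% with RANKL, 51.7% and 56.5% with RANKL+I-BET and 79.2% with I-BET alone. In the intergenic chromosome 2 cluster, ranked 148, the shares were 46.9% and 49.5% untreated, 60.3% and 62.8% with RANKL, 36.7% and 20.2% with RANKL+I-BET and 14.7% with I-BET alone. In both, RANKL+I-BET lay below untreated as well as below RANKL, as deposited and at the common covered length. As deposited, I-BET alone lay below all 6 grouped libraries in the chromosome 2 cluster and between the untreated libraries in the Nav2 one. At the common length it had 7.14% of the chromosome 2 cluster, where RANKL+I-BET replicate 1 had 0%, and 40.2% of the Nav2 one, below untreated and RANKL+I-BET (51.7% and 43.7%). RANKL replicate 2 had 100% of the Nav2 cluster covered and 0% of the chromosome 2 one. Of the 10 clusters, 5 kept RANKL above RANKL+I-BET at the common length, those of Lpp (ranked 51), Cass4, Nav2, Acot7 and the chromosome 2 one.

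**Figure D4:**
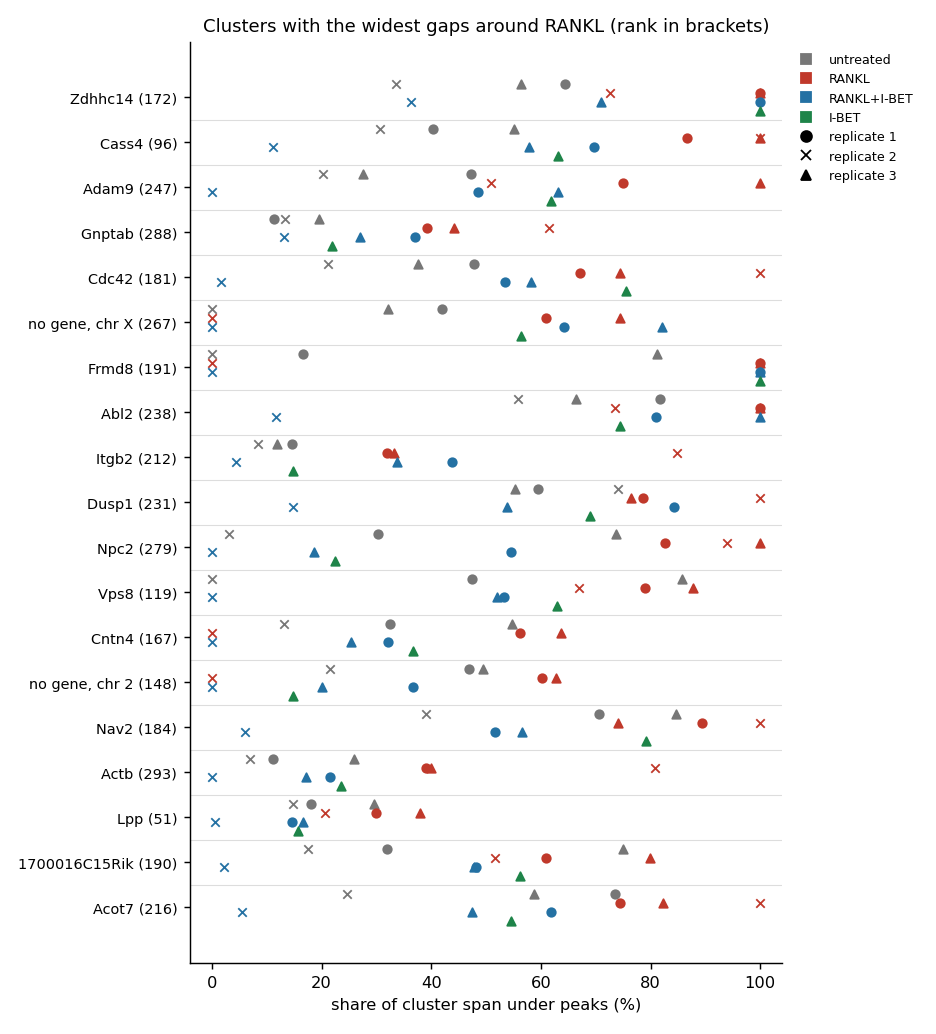
Share of the span under peaks (x axis, %) in each library for the 10 clusters with the widest gap between RANKL and untreated and the 9 further ones with the widest gap between RANKL and RANKL+I-BET (y axis, gene and rank), lists as deposited. Colour gives the group and the marker the replicate. In the clusters of Cass4 and Adam9 both RANKL libraries numbered 1 or 3 lie to the right of untreated, RANKL+I-BET and I-BET alone.

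RANKL+I-BET against untreated uses neither of the libraries that chose the clusters, but its median difference was positive in clusters chosen with RANKL and not in those chosen with untreated libraries. The widest gaps upwards were in the X-linked intergenic cluster and in those of Lilrb4a, an inhibitory receptor of myeloid cells, Mef2c, a transcription factor of the myocyte enhancer family, Itgb2 and Frmd8. In the Mef2c cluster ranked 155, at chr13:83518135-83532482, the shares were 39.3% and 44.2% untreated, 68.7% and 64.2% with RANKL+I-BET, 65.9% and 50.7% with RANKL and 67.7% with I-BET alone. As deposited, all treated libraries numbered 1 or 3 lay above both untreated ones, whereas replicates 2 had 5.07% untreated, 21.1% with RANKL and 4.46% with RANKL+I-BET. At the common covered length the shares were 39.3% and 33.4% untreated, 68.7% and 64.2% with RANKL+I-BET, and 61.4% and 0% with RANKL. The log2 difference between RANKL+I-BET and untreated at that length was 0.82 with a standard error of 1.45 (limma, adjusted p = 0.984). That error is estimated over all groups fitted, so the spread of the RANKL libraries enters it.

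In the Itgb2 cluster, at chr10:77536075-77551673, untreated libraries had 14.6% and 11.9% covered, RANKL+I-BET 43.7% and 33.7%, RANKL 31.9% and 33.3% and I-BET alone 14.8%. Both groups with RANKL lay above untreated, and I-BET alone lay just above untreated, far below either. RANKL replicate 2 had 84.8%, untreated replicate 2 8.43% and RANKL+I-BET replicate 2 4.49%. The log2 difference between RANKL+I-BET and untreated was 1.34 with a standard error of 0.32 (limma, adjusted p = 0.486), so it did not pass the threshold.

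The X-linked cluster, at chrX:19157141-19168351, had 42.0% and 32.1% covered untreated, 61.0% and 74.4% with RANKL, 64.2% and 82.0% with RANKL+I-BET and 56.5% with I-BET alone, and 0% in every library numbered 2. At the common covered length it had 42.0% and 29.9% untreated and 0% in both RANKL+I-BET libraries, so that the direction turned (log2 -3.16, standard error 0.68, limma, adjusted p = 0.406). RANKL then had 10.99% and 0%, and I-BET alone 9.09%. Of the 5 clusters with RANKL+I-BET furthest above untreated, Mef2c, Itgb2 and Frmd8 kept the order at the common length.

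The widest gaps downwards were in Nav2, in 2 clusters of Cadm1, an immunoglobulin-family adhesion molecule, in the chromosome 2 cluster ranked 148, and in that of Ptafr, the receptor of platelet-activating factor. The Cadm1 cluster ranked 123 had 69.8% and 67.2% covered untreated, 75.7% and 66.4% with RANKL, 52.2% and 55.2% with RANKL+I-BET and 69.3% with I-BET alone. RANKL+I-BET lay below all other libraries numbered 1 or 3, while I-BET alone lay between the untreated values. For Nav2 the log2 difference from untreated was -0.64 with a standard error of 0.20 (limma, adjusted p = 0.865). All 5 clusters kept RANKL+I-BET below untreated at the common length, and none passed the test.

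I-BET alone had 1 library, so its differences from untreated replicate 3 have no replicate check. A gain of 2-fold or more in covered bases plus 500 was seen in 8 of the 300 clusters (2.67%, beside 3.26% of all), and a loss in 2 (0.667%, beside 3.55%). The median share was 1.73 percentage points above that of untreated replicate 3 as deposited and 1.02 below it at the common length. The widest gains in share were in the clusters of Zdhhc14, Rarb, a retinoic acid receptor, Cdc42, Adam9 and Lgals3, which encodes galectin-3. In the Rarb cluster the share was 60.5% with I-BET alone against 19.0% in untreated replicate 3 and 42.4% in untreated replicate 1. At the common length the Lgals3 cluster had 80.6% with I-BET alone, 41.6% in untreated replicate 3 and 80.4% in untreated replicate 1. The Zdhhc14 cluster then had 0% with I-BET alone. The widest losses were in the clusters of Npc2, Myof, which encodes a membrane repair protein, Colec12, a scavenger receptor, and Ankdd1a, and in the chromosome 2 cluster. In the Myof cluster the share was 38.6% with I-BET alone against 78.5% in untreated replicate 3, but untreated replicate 1 had 11.5%, so the 2 untreated libraries enclosed it. They also enclosed it in the Colec12 cluster ranked 125 at the common length (66.9% with I-BET alone, 54.4% and 100% untreated).

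Genes of lists on osteoclast and macrophage biology were among the 262 genes of the clusters. Of the 14 NFATc1-axis and AP-1 genes that had any distal cluster, 6 had one in the top 300, Nfatc1, Nfatc2, Fos, Mitf, Tfeb and Mef2c. The same held for 4 of 14 osteoclast function genes (Atp6v1a, Atp6v1c1, Cd9, Plekhm1), 4 of 17 macrophage identity genes (Spi1, Cd36, Lyz1, Cebpb) and 3 of 9 interferon genes (Irf2, Ifnar1, Ifnar2). It held for 2 of 14 inflammatory genes (Ccr1, Ccr2), 1 of 15 NF-kB genes (Tnfrsf11a, which encodes RANK), 1 of 6 BET and P-TEFb genes (Ell2) and 1 of 5 housekeeping genes (Actb). Of all genes with any cluster, 262 of 3286 (7.97%) had one in the top 300. None of the 15 genes on the list of lymphocyte markers had a cluster. The 1 gene on the list of fibroblast and osteoblast markers that had a cluster was not in the top 300. The lists were chosen with earlier results of these data known, and the shares are given without a test.

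Spi1 encodes PU.1, the lineage factor of macrophages, and its cluster at chr2:91089110-91101210 had 49.6% and 48.0% covered untreated, 61.5% and 63.5% with RANKL, 52.3% and 65.1% with RANKL+I-BET and 68.3% with I-BET alone. Both groups with RANKL lay above untreated, as did I-BET alone, also at the common covered length. The Cebpb cluster at chr2:167740561-167778517, beside a C/EBP factor of myeloid cells, had 35.05% and 37.2% untreated, 48.2% and 47.1% with RANKL, 46.3% and 32.9% with RANKL+I-BET and 34.7% with I-BET alone. RANKL lay above the other libraries numbered 1 or 3 as deposited, but at the common length the RANKL values of 24.95% and 37.8% overlapped the untreated ones of 35.05% and 24.2%. The cluster of Lyz1, a lysozyme of macrophages, was almost wholly covered in every group, from 82.4% to 100% in libraries numbered 1 or 3.

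Fos, a subunit of AP-1, had 2 clusters on chromosome 12. In the one ranked 129 the shares were 52.9% and 56.1% untreated, 58.3% and 63.0% with RANKL, 59.4% and 54.2% with RANKL+I-BET and 50.2% with I-BET alone. RANKL lay above untreated there, as it did at the common length, and RANKL+I-BET overlapped both. In the one ranked 135, untreated replicate 1 had 4.50% and untreated replicate 3 29.5%, a range that held RANKL replicate 1 at 25.1% but not RANKL replicate 3 at 42.1%.

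Mitf and Tfeb encode related factors that activate lysosomal genes. The Mitf cluster had 63.4% and 79.0% untreated, 68.9% and 74.0% with RANKL and 69.0% and 73.4% with RANKL+I-BET, so that the untreated values enclosed all of these. The Tfeb cluster had 44.0% and 56.0% untreated, 59.4% and 61.7% with RANKL, 48.4% and 59.8% with RANKL+I-BET and 46.3% with I-BET alone. RANKL exceeded untreated there as deposited and overlapped it at the common length. Nfatc1, the central osteoclast transcription factor, had 29.2% and 44.7% of its intragenic cluster covered untreated, 45.6% and 30.9% with RANKL, 40.7% and 48.1% with RANKL+I-BET and 39.5% with I-BET alone, and the groups overlapped.

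The cluster of Tnfrsf11a had 63.8% and 100% untreated, 100% and 84.5% with RANKL, 66.2% and 100% with RANKL+I-BET and 82.9% with I-BET alone, again with overlap. That of Atp6v1a, a subunit of the proton pump with which osteoclasts acidify bone, was covered at 100% in both untreated and both RANKL libraries. The Atp6v1c1 cluster, of another subunit of that pump, had 36.6% and 45.0% untreated, 54.2% and 54.8% with RANKL, 46.4% and 52.6% with RANKL+I-BET and 47.1% with I-BET alone. As deposited, the 3 groups stood apart there with RANKL the highest. At the common length RANKL+I-BET (23.6% and 31.8%) lay below untreated (36.6% and 45.0%).

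Ccr2, a chemokine receptor of monocytes, had 25.3% and 26.6% untreated, 32.6% and 32.8% with RANKL, 26.4% and 26.0% with RANKL+I-BET and 29.3% with I-BET alone, a narrow spread in which RANKL was the highest. At the common length RANKL replicate 3 had 14.1% and the order was lost. Plekhm1, a lysosomal traffic protein needed by osteoclasts, had 64.5% and 86.8% untreated, 86.5% and 74.3% with RANKL, and 96.1% and 100% with RANKL+I-BET, which lay above both other groups. I-BET alone also had 100% there.

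Over the 26 clusters of list genes, RANKL lay above untreated without overlap in 15 as deposited (57.7%, beside 62.3% of all clusters) and in 5 at the common length (19.2%, beside 22.5%), those of Spi1, Fos (ranked 129), Ifnar1 (both) and Mef2c (ranked 251). RANKL+I-BET lay below RANKL in 9 as deposited (34.6%, beside 45.2%) and in 3 at the common length (11.5%, beside 19.9%), Cd9 (ranked 76), Ifnar2 and Atp6v1c1. RANKL+I-BET lay above untreated in 8 as deposited (30.8%, beside 24.4%) and in 6 at the common length (23.1%, beside 13.9%). It lay below untreated in 0 as deposited (beside 4.02%) and in 2 at the common length, Ccr2 and Atp6v1c1 (7.69%, beside 9.66%). The 5 clusters were all among the 15. All 26 are among the 300, the closer comparison. In the 300, RANKL lay above untreated in 54.3% as deposited and 24.3% at the common length. RANKL+I-BET lay below RANKL in 41% as deposited and, at the common length, in 66 of the 300. It lay above untreated in 32% and 20.3%, and below untreated in 5% and 14%. As deposited, the list share was thus below that of the 300 for RANKL+I-BET above untreated, and above it for RANKL above untreated. No difference was tested.

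**Figure D5:**
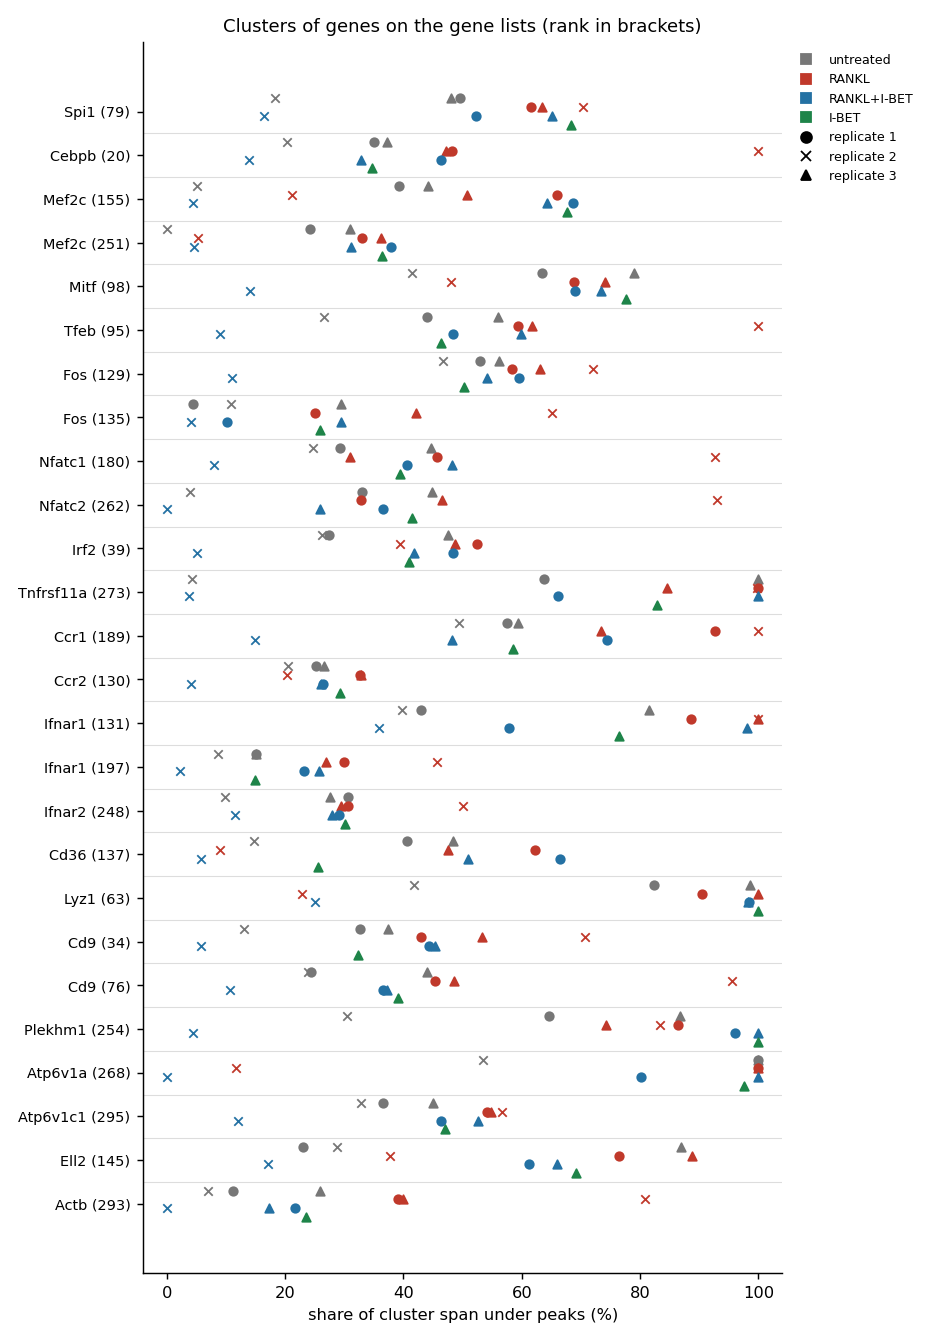
Share of the span under peaks (x axis, %) in each library for the 26 clusters whose gene is on a gene list (y axis, gene and rank), lists as deposited. Colour gives the group and the marker the replicate. The values of RANKL+I-BET replicate 2 (blue crosses) lie at or near the left in most clusters, and the untreated and RANKL values of Mitf, Nfatc1 and Tnfrsf11a overlap.

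Clusters built in the same way from untreated or from RANKL+I-BET replicates 1 and 3 were largely at the same places. Of the 300 RANKL clusters, 224 (74.7%) overlapped a top 300 cluster of untreated cells, which is also 74.7% of that list. With RANKL+I-BET it was 226 (75.3%), overlapping 228 (76.0%) of that list, and 196 were in all 3 top lists. Clusters in the RANKL top list only numbered 46, with a median rank of 237.5, and 41 of them ranked beyond 150. Among them were those of Fos (ranked 135), Ifnar1 (ranked 131), Cd83, a surface protein of activated antigen-presenting cells, Nr1h3, the liver X receptor alpha, Adam9, Gnptab and Npc2.

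Of the 300, 299 overlapped some untreated cluster and 296 some RANKL+I-BET cluster. The exceptions were Nf1 for both and Frmd8, Stom and Mbnl1 for RANKL+I-BET. Each of them overlaps a stretch shared by the libraries of the other group. That stretch reached a gene end or came within 2.5 kb of one, and was dropped for that. For Nf1 the untreated stretch was 5742 bp long, and for Frmd8 the RANKL+I-BET stretch was 16392 bp long and ended 317 bp from a gene end. When the top 300 were chosen from untreated cells instead, the median share was 49.5% and 57.7% untreated, 55.2% and 61.2% with RANKL and 52.7% and 53.9% with RANKL+I-BET. RANKL replicate 1 then lay within the untreated range, as did both RANKL+I-BET medians, while in the clusters chosen with RANKL both RANKL medians lay above it.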

How the data were processed

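The members, gene lists and rules were chosen with earlier results of these data known. Per the submitters' processing notes, reads were aligned with Bowtie2 to mm10 (GRCm38) after FastQC, and peaks were called with MACS2; versions, filters and the use of the inputs are not given in the sources used here. The labels give single-end reads of 50 bp. Each deposited list gives a peak's score, its fold enrichment (a ratio), and its p and q values as -log10, all the authors' own. They served to rank, filter and describe the peaks of a single list. Columns were identified from layout and values.

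Covered bases were computed in Python 3.11.15 (numpy 2.4.6, pandas 2.3.3). Genes were 21887 protein-coding genes of a RefSeq GRCm38.p6 table without strand, so distances run to either end. limma 3.58.1 in R 4.3.3 fitted untreated, RANKL and RANKL+I-BET (replicates 1 and 3) with a trended prior on log2(covered bp + 500), for clusters with a mean of at least 500 bp, adjusted over all of them. The cluster code recovered 44 of 44 simulated clusters. Clusters were named by score, by the widest gaps between groups, by gene list and by nearness to rank 300; genes outside that rule (Cd300a, Gnl1, Rbpj, Cybb, Alcam, and the clusters in the RANKL top list only or without a counterpart) were chosen after their values were seen. Motifs of the distal stretches were not analysed here, since they need a genome. Alternatives were a common covered length, a -log10 q of at least 5, other stitching, gene-end and score settings, stretches in place of spans, other pseudocounts, no filter, all 3 replicates, a replicate block and leaving out each library; 2 combinations with all 3 replicates were chosen after seeing the data. A cluster named by that rule is not reported here.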

Additional observations from a re-analysis of the deposited data

Results flagged for a closer look

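I-BET coverage went opposite ways without and with RANKL in 8 of the results reported, and these differences were not tested, because I-BET alone had 1 library. The effect of I-BET without RANKL is I-BET alone minus the untreated mean, and the effect with RANKL is the RANKL+I-BET mean minus the RANKL mean, in percentage points of span. For the median share over the 300 clusters the effects were 5.72 and -6.84, a difference of 12.6. Against untreated replicate 3 alone the effect without RANKL was 1.73 as deposited and -1.02 at a common covered length, where the effect with RANKL was -2.59, so that both then had the same sign. The difference was 56.2 in the Adam9 cluster (24.5 without and -31.6 with RANKL), 47.9 in the Cdc42 cluster (32.8 and -15.0) and 44.9 in the Cass4 cluster (15.4 and -29.5). It was 19.6 in the Cadm1 cluster ranked 134, 16.1 in the Gnptab cluster, 11.3 in the Atp6v1c1 cluster and 9.88 in the Ccr2 cluster. At the common length the pattern held in the libraries of Adam9, Cdc42, Cass4 and Atp6v1c1. In Cadm1 the effect with RANKL was then 20.1 (RANKL 27.1% and 61.2%, RANKL+I-BET 64.4% and 64.0%), and in Gnptab and Ccr2 the RANKL and RANKL+I-BET libraries overlapped. Coverage higher with I-BET than in both untreated libraries, and lower in both RANKL+I-BET than in both RANKL libraries, was seen in 38 of the 300 clusters as deposited (12.7%, beside 12.4% of all 4845), in 17 at the common length (5.67%, beside 4.91%) and in 11 under both (3.67%, beside 3.01%). The same RANKL libraries chose the clusters, and their part in the pattern was not tested.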

How the results depend on the processing

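As deposited, the median share of span was 12.6 percentage points higher with RANKL than untreated, 6.84 lower with RANKL+I-BET than with RANKL and 5.71 higher with RANKL+I-BET than untreated, and the counts of clusters whose groups do not overlap are given in the report. At a common covered length the 3 differences were 0.50, -2.59 and -2.09, and the counts were 73 and 28 for RANKL above and below untreated, 66 and 38 for RANKL above and below RANKL+I-BET, and 61 and 42 for RANKL+I-BET above and below untreated. With peaks at a -log10 q of at least 5 only, in lists not cut to a common length, the difference between RANKL+I-BET and RANKL was -10.7. There the median was 0% in RANKL+I-BET replicate 3 and in untreated replicates 1 and 3. The counts were 107 and 1 for RANKL above and below untreated, 74 for RANKL above RANKL+I-BET, and 56 and 5 for RANKL+I-BET above and below untreated. With all 3 replicates and lists as deposited the differences were 23.1, -23.3 and -0.18. There 0 clusters had untreated above RANKL, RANKL+I-BET above RANKL, or RANKL+I-BET apart from untreated in either direction. Adding libraries to the groups can only keep or lower such a count. With all 3 replicates at a common covered length, a combination chosen after seeing the data, RANKL minus untreated was -1.44 and RANKL+I-BET minus RANKL 1.75. There the median was 4.32% in untreated replicate 2, 5.25% in RANKL+I-BET replicate 2 and 0% in every other library. Each of these differences thus rests on 1 library numbered 2. The counts were 0 and 17 for RANKL above and below untreated, 2 and 7 for RANKL above and below RANKL+I-BET, and 2 for RANKL+I-BET above untreated. Within stretches in place of spans the differences from RANKL were 20.5 (RANKL minus untreated) and -10.6 (RANKL+I-BET minus RANKL), with counts of 280 and 0 for RANKL above and below untreated, 244 and 0 for RANKL above and below RANKL+I-BET, and 9 for untreated above RANKL+I-BET. Both RANKL libraries cover every stretch by construction. Stitching across 5 kb moved RANKL+I-BET minus RANKL to -11.6. Clusters with untreated above RANKL numbered 1 with gene ends widened to 5 kb, 1 when scored by covered length, 0 in the top 100 and 2 in the top 600, and 7 of the top 100 had RANKL+I-BET above RANKL.

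Leaving out each library in turn gave ranges of 8.56 to 16.5, -8.65 to -5.03 and 1.72 to 9.70 for the 3 differences. The counts ranged from 163 to 256 for RANKL above untreated, 2 to 19 for the reverse, 123 to 196 for RANKL above RANKL+I-BET, 11 to 45 for the reverse, 96 to 208 for RANKL+I-BET above untreated and 15 to 88 for the reverse. Leaving out a library can only keep or raise such a count, so the low end of each range is the count with no library left out. Without untreated replicate 3, RANKL lay above untreated in 256 clusters and RANKL+I-BET in 208. Without untreated replicate 1, untreated lay above RANKL+I-BET in 88. Of the 63 clusters named by the rule, the sign of the difference at a common covered length was other than as deposited in 26 for RANKL against untreated, 15 for RANKL+I-BET against RANKL and 9 for RANKL+I-BET against untreated.

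limma called 0, 15 and 0 clusters (RANKL against untreated, RANKL+I-BET against RANKL, RANKL+I-BET against untreated). With lists as deposited it called 20, 0 and 1. For the fit with a -log10 q of at least 5, the lists numbered 1 or 3 were also cut to the shortest of them, 0.479 Mb. That left 53 clusters, of which limma called 3, 7 and 4. Within stretches, at the common covered length, it called 10, 34 and 0. A pseudocount of 100 bp gave 9, 15 and 0, one of 2000 bp 0, 0 and 0, and no filter 167, 221 and 0. All 3 replicates, with every list cut to the 3.44 Mb of the shortest, gave 0, 0 and 0 of 576 clusters tested. Without each library in turn the calls ranged from 0 to 86, from 0 to 135 and from 0 to 0. The 86 came without untreated replicate 1, which also gave 135 calls for RANKL+I-BET against RANKL, and without untreated replicate 3 there were 132. The cause of these changes was not tested. With the replicate number as a replicate block the calls were 0, 0 and 0, also with all 3 replicates. The labels tie nothing to the numbers. Same-numbered libraries correlated at 0.0491 to 0.107 in their deviations from group means, where 2 libraries a group make the other pairs equal and opposite. With all 3 replicates the 9 same-numbered pairs correlated at 0.0389 to 0.339, 4 of them over 0.1, and the other pairs at -0.228 to 0.0468. Each of the 9 libraries correlated best with one of its own number, a hint from the data and not from the design, and the numbers were not taken as pairs. With lists of peaks and no counts, depth cannot be separated from list length, and weak peaks are missing from all values.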
